A study of Mus musculus with 8 samples.

Results

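Nuclear receptors are transcription factors that bind small lipophilic ligands such as steroids, retinoids, vitamin D and fatty acids, or act as orphans without a settled ligand. Many bind DNA as dimers at copies of a short half-site, and the retinoid X receptors serve as the partner of many of them, the thyroid hormone receptors included. In the testis they are known for gonad formation and steroid synthesis (SF-1 and DAX-1), for the response of tubule and interstitial cells to sex steroids, and for retinoic acid signalling to germ cells. The receptors of thyroid hormone itself are not among the genes described here. The 42 genes were taken from a list of nuclear receptor symbols, matched without regard to case. All 42 were found among 24499 deposited symbols, in 122 transcripts, and the transcript with the highest average of the group means stood for its gene. A gene was counted as low when both group means were under 1 RPKM (reads scaled to transcript length and to mapped reads). By that rule 28 receptors were kept and 14 were low, beside 15821 genes kept in all.

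The samples were whole testes of 129/SVJ mice at postnatal day 5, 4 of them wild type and 4 labelled Dio3KO. Dio3 is the deiodinase that inactivates thyroid hormones, and the study's title asks which genes of the neonatal testis that hormone regulates. The labels give neither the altered part of Dio3 nor any cell type restriction of the knockout, and Dio3 itself had means of 0.52 RPKM in wild type against 2.95 RPKM in the other group. Every direction below therefore rests on that label. The tissue label and the extraction text differ, the latter naming hypothalami. Sertoli cell markers summed to 1375 and 1553 RPKM in the groups (wild type first, here and below), against 7.21 and 4.25 RPKM for 12 hypothalamic markers. Each value is a deposited group mean with its coefficient of variation (CV, the SD divided by the mean). The values of single mice and the number of reads per sample were not used here. "Rose" and "fell" are kept for genes with adjusted p under 0.05 in the authors' deposited table, and log2 ratios are of means with 0.5 RPKM added, Dio3KO-labelled over wild type, ± the SE computed from the CVs.

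Of the 28 receptors, 6 rose (Pparg, Vdr, Nr3c1, Esr1, Nr1d2 and Ppara) and 4 fell (Pgr, Rara, Nr0b2 and Nr5a1), while 18 did not pass. That is 21.4% higher and 14.3% lower, against a background of 13.8% higher and 15.8% lower among all 15821 genes, or 35.7% against 29.7% in either direction. The count was thus near the background, and it is the identity and size of the single changes that the following values give. Of the receptors 14 had a higher and 14 a lower mean in the Dio3KO-labelled group, and their median log2 ratio was 0.00, beside -0.05 for all genes. The moderated limma test, an alternative that pools the spread across genes, called 8 receptors higher and 5 lower, 46.4% in either direction, against 18.5%, 23.1% and 41.6% of all genes. The median size of the difference, without its sign, was 0.25 among the receptors and 0.17 among all genes. A difference of at least 2-fold was reached by Pparg upward and Pgr downward, 3.57% of the receptors each way, against 1.52% and 0.721% of all genes. Pparg and Pgr, together with Nr2f1, passed the level of 1 RPKM in 1 of the groups only. They had to differ between the groups to be counted as they were.

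**Figure D1:**
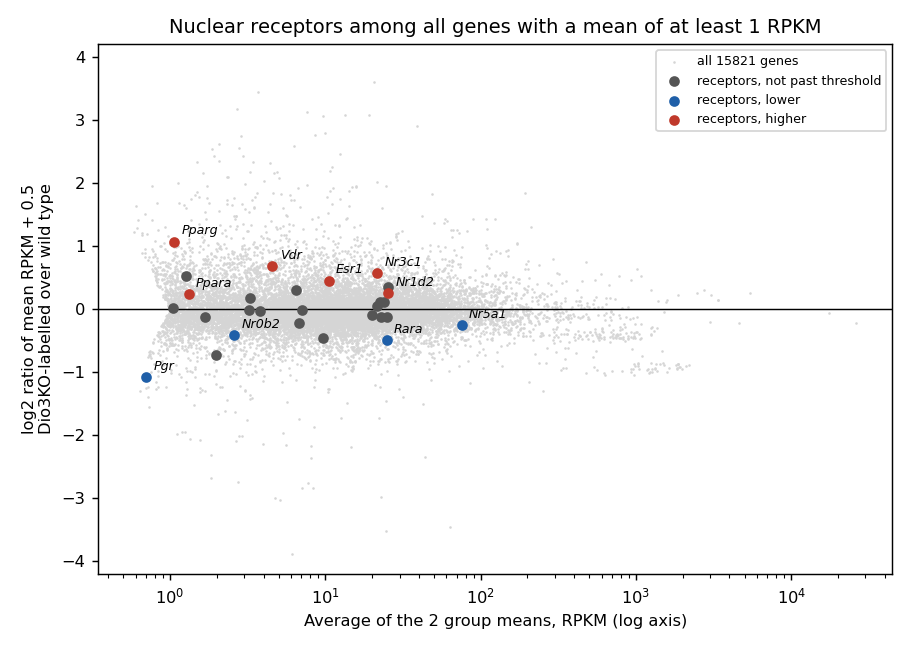
Log2 ratio of the group means (RPKM + 0.5, Dio3KO-labelled over wild type, vertical axis) against the average of both means (RPKM, log axis) for all 15821 genes in grey and the 28 receptors in colour. The 6 receptors that rose and the 4 that fell lie between -1.08 and 1.07, inside the range of the other genes.

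Promoter sequences are shown for changed receptors with a single start in the RefSeq promoter table (build GRCm38.p6), so that 2 that rose can be set beside 2 that fell. Of 5 such genes Ppara is not shown, because its window holds more than 30 bases of annotated exon. Each is the 250 bases before that start, read 5′ to 3′ on the gene's strand. In GENCODE M21 annotation the Vdr window lies inside the gene (97854425 to 97910630) and holds 14 annotated exon bases. The Nr1d2 window overlaps its gene (18204054 to 18239127) and holds 21 annotated exon bases. The windows of Nr0b2 and Pgr hold 0. Capitals mark 3 motifs on either strand, the nuclear receptor half-site AGGTCA, the E-box CACGTG and the GC box GGGCGG. The windows are chr14:18239107-18239356 (minus strand) for Nr1d2, chr15:97908297-97908546 (minus) for Vdr, chr4:133553126-133553375 (plus) for Nr0b2 and chr9:8899583-8899832 (plus) for Pgr.
Nr1d2: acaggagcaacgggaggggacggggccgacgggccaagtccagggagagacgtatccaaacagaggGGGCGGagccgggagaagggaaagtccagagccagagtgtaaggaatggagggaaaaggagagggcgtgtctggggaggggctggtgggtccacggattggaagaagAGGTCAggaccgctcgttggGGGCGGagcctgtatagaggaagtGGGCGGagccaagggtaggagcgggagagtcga
Vdr: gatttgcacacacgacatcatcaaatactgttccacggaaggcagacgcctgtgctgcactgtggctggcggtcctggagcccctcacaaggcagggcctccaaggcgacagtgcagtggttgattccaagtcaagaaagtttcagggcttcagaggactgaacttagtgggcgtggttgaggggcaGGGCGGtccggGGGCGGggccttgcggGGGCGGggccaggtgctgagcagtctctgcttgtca
Nr0b2: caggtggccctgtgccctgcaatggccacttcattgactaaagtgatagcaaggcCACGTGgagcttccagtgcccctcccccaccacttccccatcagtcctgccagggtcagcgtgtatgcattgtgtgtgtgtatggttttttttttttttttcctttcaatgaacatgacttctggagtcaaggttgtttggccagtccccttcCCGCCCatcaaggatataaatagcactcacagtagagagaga
Pgr: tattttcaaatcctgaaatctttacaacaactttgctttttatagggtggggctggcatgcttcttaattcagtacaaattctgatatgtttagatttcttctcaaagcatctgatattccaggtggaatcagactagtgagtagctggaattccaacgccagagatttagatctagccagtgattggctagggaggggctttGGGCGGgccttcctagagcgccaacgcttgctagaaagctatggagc
Each of the 4 windows held at least 1 GC box, a motif in 32.7% of all 32851 promoter windows of that length. The half-site stood in the Nr1d2 window alone among the 4, against 14% of all windows, and the E-box in the Nr0b2 window alone, against 6.02%. Among the 4, Nr1d2 had the highest share of G and C, 63.6%, and Pgr the lowest, 43.6%, beside a median of 52.4% for all promoters. Across the 39 receptors with an entry (59 starts), 27 starts of 22 receptors held the GC box. The half-site was in 10 starts of 9 receptors and the E-box in 3 starts. The DR4 motif, the half-site repeated in the same direction after any 4 bases and bound by thyroid hormone receptors with RXR, was in 0 of the 59 windows and in 5 of all 32851. The SF-1 motif CAAGGTCA, which contains the 6 letters of the half-site, was in 0 of the 59 and in 1.33% of all. A match describes letters in a window and no binding was measured.

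In wild-type testes the 28 receptors ranged from 82.1 down to 0.51 RPKM. Nr5a1, which encodes the gonadal and adrenal regulator SF-1, stood at the top, higher than 94.1% of all genes kept. Rara followed at 29.0 RPKM, Nr2f6 at 25.9 RPKM and Rxra at 23.9 RPKM, and each of these differed from its neighbours in the order by more than the summed SDs. The next 6, Nr1d2, Nr1h2, Nr0b1, Nr2f2, Rxrb and Nr2c2, lay between 20.7 and 23.1 RPKM. Every neighbouring pair among these 6 overlapped within 1 SD. Nr3c1, Nr4a1, Esr1, Rora, Nr1d1 and Esrra lay between 5.70 and 17.3 RPKM. The other 10 receptors of at least 1 RPKM in wild type reached 3.82 RPKM at most. In the Dio3KO-labelled group Nr5a1 was still first at 68.6 RPKM, Rara had moved from the 2nd to the 10th place and Nr3c1 from the 11th to the 4th. From Nr0b1 in the 2nd place to Nr2c2 in the 11th, every neighbouring pair of that group overlapped within 1 SD. The CV was lower in the Dio3KO-labelled group for 18 receptors, higher for 8 and equal for 2, with medians of 0.08 there and 0.105 in wild type. It was also lower there in 59.5% of all genes.

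**Figure D2:**
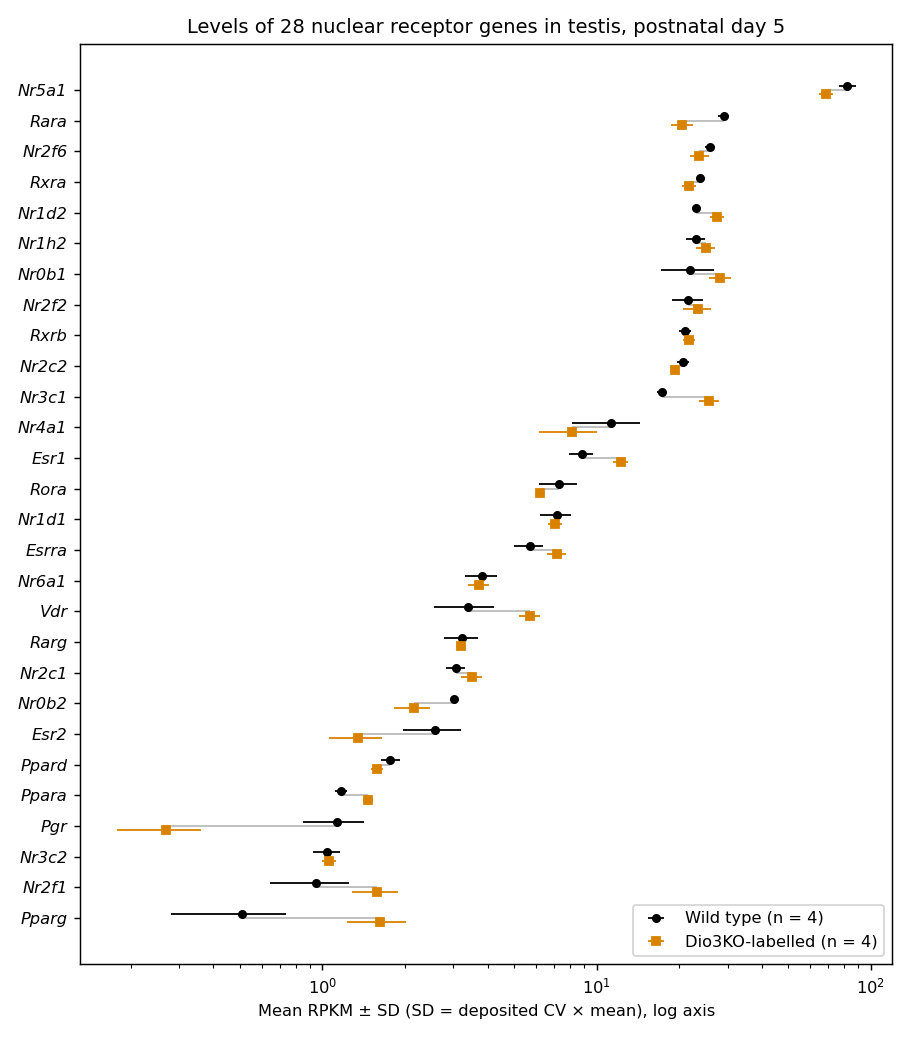
Mean level of the 28 receptors (RPKM, log axis) in wild-type (black circles) and Dio3KO-labelled testes (orange squares), with the SD computed from the deposited CV and 4 mice per group. Nr5a1 lies alone at the top in both groups. Rara goes from 29.0 to 20.5 RPKM and Nr3c1 from 17.3 to 25.8 RPKM.

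Among the retinoid receptors only the retinoic acid receptor gene Rara fell. It had 29.0 RPKM (CV 0.05) in wild type and 20.5 RPKM (CV 0.09) in Dio3KO-labelled testes, for a log2 ratio of -0.49 ± 0.07 and adjusted p = 0.0085 in the authors' deposited table. This was the smallest such p of any receptor that fell, and the means stood apart by more than the SDs of both groups. In mm10, with GENCODE M21 annotation, Rara (ENSMUSG00000037992.16) is on chromosome 11, plus strand, positions 98927818 to 98974942. All 5 of its deposited transcripts fell, with wild-type means of 25.7 to 29.0 RPKM. The related gene Rarg was at 3.23 and 3.20 RPKM, a log2 ratio of -0.01 ± 0.09. Rarb, itself a known target of retinoic acid, was low at 0.51 and 0.50 RPKM. The retinoid X receptors Rxra (23.9 and 21.8 RPKM, log2 ratio -0.13 ± 0.04) and Rxrb (21.1 and 21.8 RPKM, 0.05 ± 0.05) did not pass, and Rxrg was low. Whether the difference of Rara and that of the other receptors themselves differ was not tested.

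Known targets of retinoic acid receptors did not move one way. Of 7 measured above 1 RPKM, 2 rose, 1 fell and 4 did not pass. Their median log2 ratio was 0.32. The transglutaminase gene Tgm2 rose from 55.4 RPKM (CV 0.06) to 80.8 RPKM (CV 0.10). The retinol transporter gene Stra6 fell from 10.97 to 5.52 RPKM. Rarres2 (46.6 and 50.9 RPKM) and Cyp26b1, which breaks down retinoic acid (44.9 and 59.6 RPKM), did not pass.

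The sensors of fatty acids and vitamin D held 3 of the 6 receptors that rose. Pparg, best known from fat cells and macrophages, rose from 0.51 RPKM (CV 0.45) to 1.62 RPKM (CV 0.24), for a log2 ratio of 1.07 ± 0.21 and adjusted p = 0.0272 in the authors' deposited table. The wild-type level is low and its spread wide, so the 3.18-fold ratio of the means is imprecise. Vdr, the vitamin D receptor, rose from 3.39 RPKM (CV 0.25) to 5.72 RPKM (CV 0.09), for a log2 ratio of 0.68 ± 0.17 and adjusted p = 0.0273 in the authors' deposited table. Ppara, which drives fatty acid oxidation in liver, rose only from 1.17 RPKM (CV 0.05) to 1.47 RPKM (CV 0.04). Its log2 ratio of 0.24 ± 0.03 was the smallest that passed, yet its adjusted p = 0.0072 was the lowest of all 28 receptors in the authors' deposited table. The narrow spread within both groups goes with that p. Pparg (ENSMUSG00000000440.12) is on chromosome 6, plus strand, positions 115360951 to 115490399. Chromosome 15 carries both Vdr (ENSMUSG00000022479.15, minus strand, positions 97854425 to 97910630) and Ppara (ENSMUSG00000022383.13, plus strand, positions 85734983 to 85802819).

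The other sensors gave no call. Ppard, the widely expressed PPAR-delta gene, was at 1.77 and 1.58 RPKM (log2 ratio -0.13 ± 0.05), and Nr1h2, which encodes the oxysterol receptor LXR-beta, at 23.0 and 24.95 RPKM (0.12 ± 0.08). The related gene Nr1h3 (LXR-alpha) was low at 0.51 and 0.61 RPKM. Nr1h4, the bile acid receptor FXR, was counted as low although its means were 0.28 RPKM (CV 0.18) and 0.91 RPKM (CV 0.21), with adjusted p = 0.0260 in the authors' deposited table. Hnf4a did not exceed 0.07 RPKM, and Hnf4g was listed at 0.00 RPKM in both groups.

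Targets of these sensors that passed in the authors' deposited table were higher. Of 13 PPAR targets above 1 RPKM, 7 rose and 0 fell, and the median log2 ratio was 0.36 beside -0.05 for all genes. The fatty acid carrier gene Cd36 rose from 3.91 RPKM (CV 0.20) to 7.83 RPKM (CV 0.11) and Cpt1a, which is also known to respond to thyroid hormone, from 46.1 to 64.97 RPKM. Ucp2 (25.7 and 28.8 RPKM) and the lipid droplet gene Plin2 (20.2 and 21.9 RPKM) did not pass. Of 11 LXR targets, 4 rose and 0 fell, with a median of 0.23. Apoe rose from 73.8 RPKM (CV 0.14) to 145 RPKM (CV 0.10), the cholesterol exporter Abca1 from 32.8 to 58.0 RPKM and the desaturase Scd1 from 9.53 to 14.9 RPKM. Scd2 (172 and 194 RPKM) and Fasn (72.7 and 86.2 RPKM) did not pass. Macrophage markers moved with this group of genes. Of 9 macrophage markers with a deposited value, 7 rose, beside 13.8% of all genes. Their summed level was 83.5 and 166 RPKM, with 0 of them at 0. Cd163 (0.51 and 1.09 RPKM), counted among the 7, had to be higher in the Dio3KO-labelled group to be counted. Endothelial markers summed to 66.0 and 87.9 RPKM (5 of 9 rose) and Leydig cell markers to 390 and 580 RPKM (3 of 7 rose). Of those 3, Hsd3b6 (0.14 and 5.26 RPKM) likewise had to be higher to be counted. The other Leydig cell markers did not pass. They were Insl3 (84.7 and 70.01 RPKM), Cyp17a1 (55.45 and 55.07 RPKM), Lhcgr (2.95 and 3.35 RPKM) and Star (24.8 and 44.9 RPKM). The part of these cells in the differences was not tested. In whole tissue, a change in the number of cells of a type and a change in RNA per cell cannot be told apart.

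**Figure D3:**
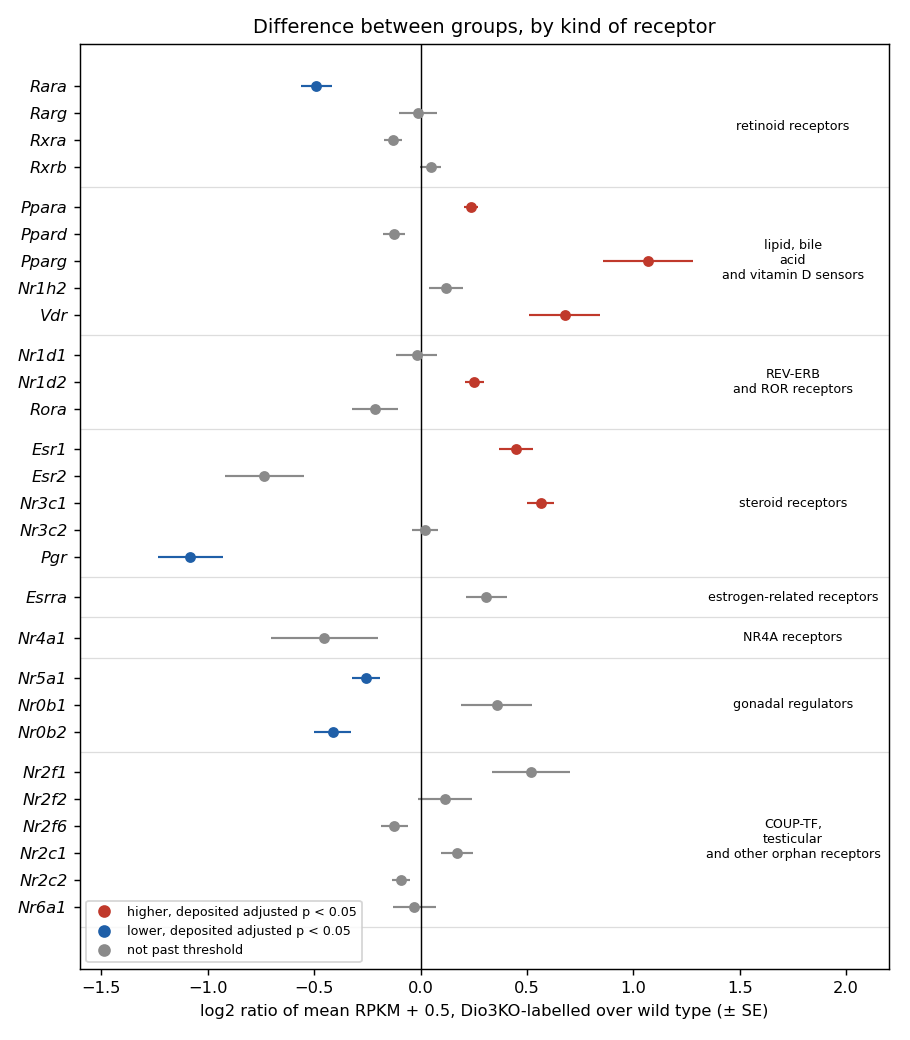
Log2 ratio of the group means (RPKM + 0.5, Dio3KO-labelled over wild type, ± SE from the deposited CVs) for the 28 receptors, set out by kind of receptor. Receptors that rose are red and those that fell blue, and the steroid receptor group holds both, from Pgr at -1.08 to Nr3c1 at 0.56.

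The steroid receptors showed the widest split. Nr3c1, the glucocorticoid receptor gene, rose from 17.3 RPKM (CV 0.04) to 25.8 RPKM (CV 0.08), for a log2 ratio of 0.56 ± 0.06 and adjusted p = 0.0161 in the authors' deposited table. It was the largest rise among receptors above 5 RPKM in both groups, an increase of 49.3%, and all 6 of its transcripts rose. Esr1, the estrogen receptor alpha gene, rose from 8.82 RPKM (CV 0.10) to 12.2 RPKM (CV 0.06), for a log2 ratio of 0.45 ± 0.08 and adjusted p = 0.0110 in the authors' deposited table. Pgr, the progesterone receptor gene and a classic estrogen target in the uterus, went the other way. Its mean was 4.19-fold lower, 1.13 RPKM (CV 0.25) against 0.27 RPKM (CV 0.34), with a log2 ratio of -1.08 ± 0.15 and adjusted p = 0.0279 in the authors' deposited table. Both levels are low and their spread wide, so this fold is imprecise. The log2 ratio of Pgr was -1.73 with 0.1 RPKM added and -0.75 with 1 RPKM added. Esr2, the estrogen receptor beta gene, had 2.58 RPKM (CV 0.24) and 1.35 RPKM (CV 0.22) but adjusted p = 0.0626 in the authors' deposited table. Under the moderated limma test its log2 ratio of -0.74 passed with adjusted p = 0.00296. The mineralocorticoid receptor gene Nr3c2 stood at 1.04 and 1.06 RPKM, a log2 ratio of 0.02 ± 0.06. Nr3c1 (ENSMUSG00000024431.15) is on chromosome 18, minus strand, positions 39410545 to 39519421. Esr1 (ENSMUSG00000019768.16) is on chromosome 10, plus strand, positions 4611593 to 5005614, and Pgr (ENSMUSG00000031870.16) on chromosome 9, plus strand, positions 8899833 to 8968611.

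Most targets of the glucocorticoid receptor did not pass. Of 11 above 1 RPKM, 2 rose, 0 fell and 9 did not pass. Whether called or not, 9 of the 11 had a higher mean in the Dio3KO-labelled group. Their median log2 ratio was 0.17. The kinase gene Sgk1 rose from 8.72 RPKM (CV 0.13) to 14.1 RPKM (CV 0.06) and the metallothionein Mt1 from 38.5 to 62.9 RPKM. Tsc22d3 (65.8 and 66.4 RPKM) and Fkbp5 (47.7 and 45.8 RPKM), both widely used readouts of glucocorticoid action, did not pass. Interstitial fibroblast-type markers summed to 1521 and 2208 RPKM, and 2 of 7 rose. Their part in the rise of Nr3c1 or Esr1 was not tested.

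Of the receptors that govern gonad formation and steroid synthesis, 2 fell. Nr5a1 fell from 82.1 RPKM (CV 0.07) to 68.6 RPKM (CV 0.06), for a log2 ratio of -0.26 ± 0.07 and adjusted p = 0.0387 in the authors' deposited table. This 16.5% fall was the largest in RPKM of any receptor. Nr0b2, which encodes the corepressor SHP and lacks a DNA-binding domain, fell from 3.03 RPKM (CV 0.02) to 2.15 RPKM (CV 0.15), for a log2 ratio of -0.41 ± 0.09 and adjusted p = 0.0394 in the authors' deposited table. Nr0b1, whose product DAX-1 is a repressor of SF-1 and also lacks that domain, was at 21.96 RPKM (CV 0.22) and 28.3 RPKM (CV 0.09). Its log2 ratio was 0.36 ± 0.17 with adjusted p = 0.1441 in the authors' deposited table, and it did not pass. Nr5a2 (LRH-1), the closest relative of Nr5a1, was low at 0.94 and 0.90 RPKM. Nr5a1 (ENSMUSG00000026751.14) is on chromosome 2, minus strand, positions 38692656 to 38714542. Its neighbour there is the germ cell nuclear factor gene Nr6a1 (38723370 to 38927688), which stood at 3.82 and 3.73 RPKM. Nr0b2 (ENSMUSG00000037583.2) is on chromosome 4, plus strand, positions 133553376 to 133556536.

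Known SF-1 targets moved in both directions. Of 15 above 1 RPKM, 5 rose, 4 fell and 6 did not pass. Their median log2 ratio was 0.16. The side-chain cleavage enzyme Cyp11a1 rose from 64.2 RPKM (CV 0.11) to 156 RPKM (CV 0.10) and its electron donor Fdx1 from 41.5 to 61.2 RPKM. The Sertoli cell hormone Amh fell from 284 to 127 RPKM. The inhibin subunit gene Inha (435 and 455 RPKM) and the Leydig cell hormone gene Insl3 (84.7 and 70.01 RPKM) were not called. Sertoli cell markers were also split, with 4 of 12 higher and 4 lower. The 4 adrenal cortex markers summed to 16.3 and 5.19 RPKM, and 2 of them were low. Of the other two, the steroid 21-hydroxylase gene Cyp21a1 fell from 11.98 RPKM (CV 0.19) to 4.8 RPKM (CV 0.26), while Cyp11b1 had 3.54 RPKM (CV 0.66) and 0.13 RPKM (CV 0.75) and did not pass. The part of adrenal cells in the fall of Nr5a1 was not tested.

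Of the REV-ERB and ROR receptors, which repress and activate clock genes at shared sites, Nr1d2 alone rose. The gene encodes REV-ERB-beta and rose from 23.1 RPKM (CV 0.02) to 27.6 RPKM (CV 0.06), for a log2 ratio of 0.25 ± 0.04 and adjusted p = 0.0293 in the authors' deposited table. The 2nd of its transcripts, at 19.3 and 21.5 RPKM, had adjusted p = 0.0656 in the authors' deposited table and did not pass. Nr1d2 (ENSMUSG00000021775.11) is on chromosome 14, minus strand, positions 18204054 to 18239127. Nr1d1, which encodes REV-ERB-alpha, was at 7.16 RPKM (CV 0.13) and 7.07 RPKM (CV 0.06), a log2 ratio of -0.02 ± 0.10. Nr1d1 shares 263 exon bases, 8.55% of its own, with the opposite-strand gene Thra. Whether reads were counted by strand is not stated, so its level can hold reads of Thra, which stood at 133 and 107 RPKM. Rora had 7.31 and 6.23 RPKM and did not pass, and Rorb was low. Chromosomes 11 and 14 each carry a REV-ERB gene near a retinoic acid receptor gene. On chromosome 11 Nr1d1 did not pass and Rara fell, while on chromosome 14 Nr1d2 rose and Rarb was low.

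Of 11 REV-ERB and ROR targets above 1 RPKM, 5 rose and 2 fell, and the median log2 ratio was 0.11. Nr1d2 itself is counted among them. Of the 5 that rose, Npas2, Elovl3 and Avpr1a were under 1 RPKM in wild type and had to be higher in the other group to be counted. Clock rose from 15.0 RPKM (CV 0.02) to 20.7 RPKM (CV 0.05), while its partner Arntl fell from 10.97 to 9.39 RPKM and the cell cycle regulator E2f8 from 2.97 to 1.82 RPKM. Cry1 (14.7 and 15.3 RPKM) and Nfil3 (7.48 and 8.09 RPKM) did not pass. The labels give no hour of collection.

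The estrogen-related receptors, NR4A receptors and the remaining orphans gave no call. Esrra, a regulator of mitochondrial genes, had 5.70 RPKM (CV 0.12) and 7.18 RPKM (CV 0.08), a log2 ratio of 0.31 ± 0.10. Its adjusted p was 0.0596 in the authors' deposited table, and the moderated limma test called it with adjusted p = 0.0153. Of 11 targets of these receptors, 2 rose (cytochrome c, Cycs, from 111 to 164 RPKM, and Acadm from 45.0 to 58.7 RPKM), 0 fell and 9 did not pass, among them Atp5b (494 and 466 RPKM) and Cox5b (194 and 176 RPKM). Nr4a1, an immediate early gene, had 11.3 RPKM (CV 0.28) and 8.10 RPKM (CV 0.24), the highest CVs of any receptor above 5 RPKM in both groups, and a log2 ratio of -0.45 ± 0.25. Nr2f1 (COUP-TFI) had 0.95 RPKM (CV 0.32) and 1.58 RPKM (CV 0.19) with adjusted p = 0.0695 in the authors' deposited table, and the moderated limma test called it with adjusted p = 0.0205. Its relative Nr2f2 (COUP-TFII), a marker of interstitial progenitors, was at 21.6 and 23.4 RPKM, a log2 ratio of 0.11 ± 0.12. The testicular receptors Nr2c1 (3.06 and 3.51 RPKM) and Nr2c2 (20.7 and 19.4 RPKM) and the orphan Nr2f6 (25.9 and 23.7 RPKM) did not pass either. For 2 of these, annotated exons lie largely or partly on those of opposite-strand genes, 54.4% of the exon bases of Nr2f6 with Ocel1 and 30.7% of those of Nr2c2 with Mrps25. None of the 10 changed receptors shares exon bases with another gene in that annotation.

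The 14 low receptors were Rarb, Rxrg, Nr1h3, Nr1h4, Hnf4a, Hnf4g, Rorb, Esrrb, Esrrg, Nr4a2, Nr4a3, Nr5a2, Nr2e1 and Nr2e3, with no mean above 0.94 RPKM. Besides Nr1h4, 2 of them had an adjusted p below the threshold in the authors' deposited table. Nr4a3 had 0.05 and 0.16 RPKM with p = 0.0097, and Nr2e1 had 0.13 and 0.05 RPKM with p = 0.0438 in the authors' deposited table. Such levels lie near the last digit of the deposited means. Counted over all 42 without a limit on level, 8 receptors were called higher and 5 lower, 19% and 11.9%, against 9.95% and 11% of 24499 genes, or 31% against 21% in either direction.

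Within each kept receptor all transcripts lay on the same side of 0, whether or not the gene passed. Nr1h2 with 6 transcripts and Rora with 5 are among those that did not pass. The 10 changed receptors had 33 deposited transcripts. Of these, 28 passed in the authors' deposited table, and in 7 of the 10 genes all transcripts did. The exceptions were 3 of 8 transcripts of Esr1, 1 of 3 of Nr5a1 and 1 of 2 of Nr1d2. The 3 Esr1 transcripts that did not pass had wild-type means of 4.17 to 4.74 RPKM, against 8.38 to 8.82 RPKM for the other 5. The Nr5a1 transcript that did not pass stood at 36.7 and 29.8 RPKM. Among the 7 genes, Vdr and Nr0b2 have 1 transcript each. In all 10 genes the transcript that stands for the gene had to pass for the gene to be counted. Transcripts of a gene share exons and reads and are not independent.

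**Figure D4:**
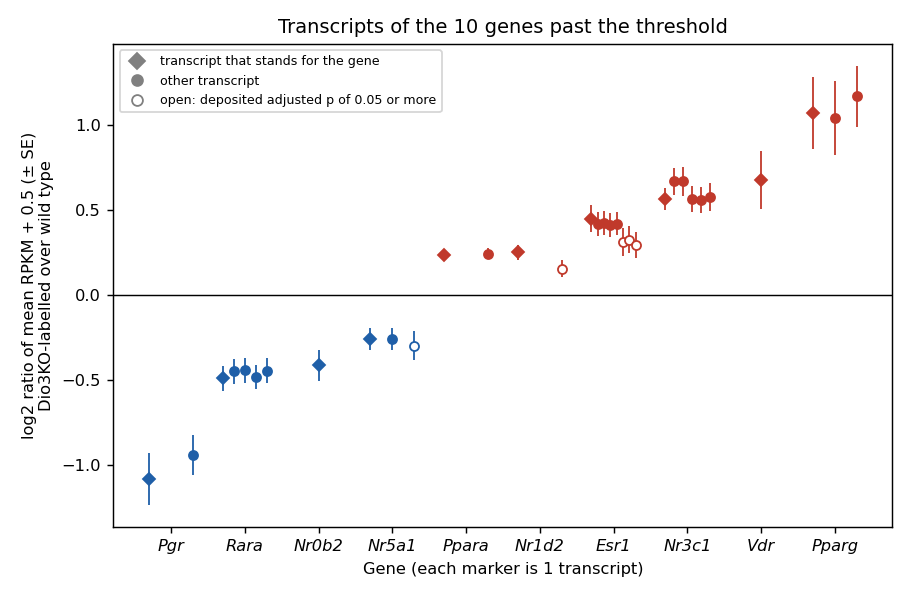
Log2 ratio (mean RPKM + 0.5, Dio3KO-labelled over wild type, ± SE) of each of the 33 transcripts of the 10 changed receptors, with diamonds for the transcript that stands for its gene and open markers for a deposited adjusted p = 0.05 or more. The 5 open markers belong to Esr1, Nr5a1 and Nr1d2. No gene has transcripts on both sides of 0, which also held for the kept receptors that did not pass.

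The coregulators that nuclear receptors recruit had a median log2 ratio of -0.05. Of 18 above 1 RPKM, 3 rose, 3 fell and 12 did not pass. The corepressor Hr rose from 1.14 RPKM (CV 0.11) to 7.66 RPKM (CV 0.07). The arginine methyltransferase and coactivator Carm1 fell from 20.01 to 15.7 RPKM, and Gps2, a subunit of the NCoR complex, from 20.97 to 16.4 RPKM. Kdm1a (60.0 and 58.9 RPKM) and Hdac3 (50.8 and 53.0 RPKM) did not pass. The lists of coregulators and targets share some genes with each other and with the receptors. Their counts, and those of the cell type markers, are to be read against the background of 13.8% higher and 15.8% lower.

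**Figure D5:**
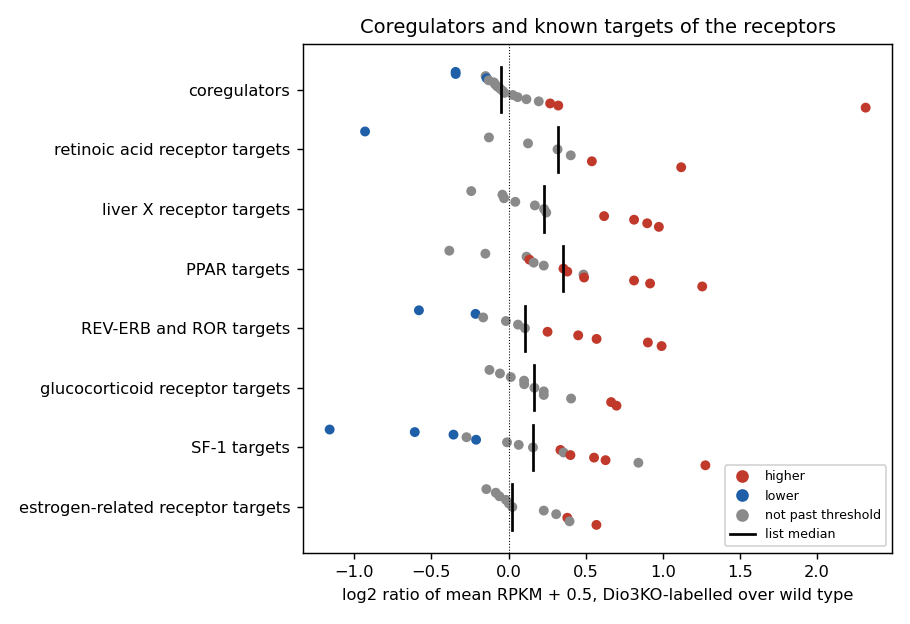
Log2 ratio (mean RPKM + 0.5, Dio3KO-labelled over wild type) of each gene above 1 RPKM in the list of coregulators and in 7 lists of receptor targets, with the list median as a black bar. The PPAR targets have the highest median, 0.36, and the coregulators the lowest, -0.05.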

How the data were processed

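RNA of 8 whole testes (4 wild type, 4 labelled Dio3KO, postnatal day 5) was sequenced. The submitters' processing notes name FastQC, Novoalign 2.08 and the build mm10, without role or order. Strandedness, the counting tool and the statistical test were not given in the sources used here. Mean RPKM per transcript and group were deposited by the authors, as were the CV of each group (a ratio of SD to mean) and an adjusted p-value of wild type against KO, all per the file headers. Those p-values ran from 0.0022 to 0.8022. The depth of the samples is unknown and no column of per-sample values was present (0 left unused). Nothing says whether replicates came from separate litters.

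Dropping repeats reduced 147417 lines to 49139 transcripts. Calls used the deposited adjusted p under 0.05. The SE of a log2 ratio was derived from the CVs (delta method, 4 samples a group). As an alternative, variances of log2 means from the CVs (at least 0.0025) were shrunk across all 15821 genes with limma 3.58.1 in R 4.3.3. That test used squeezeVar with a robust trend and 6 residual degrees of freedom, with Benjamini-Hochberg adjustment. A trial on simulated data gave both groups the same spread and changed few genes. It therefore does not show how the test performs on these data. Other alternatives were the pseudocount, the level filter, a stricter p, summed transcripts, scaling and an unequal-variance test. The members and gene lists were chosen with earlier results of these data known. Every member is accounted for. From each target list the text names at most 3 called genes (lowest p) and 2 uncalled ones (highest level). Some genes that this rule names are not reported here, and Npas2, Elovl3, Avpr1a, Cyp21a1 and Cyp11b1 were named after their values were seen.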

Additional observations from a re-analysis of the deposited data

How the results depend on the processing

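All 10 changed receptors kept their direction under each of the alternatives tried and their call under the moderated limma test, the same test on centred log2 ratios and the unequal-variance test. The count of 6 higher and 4 lower became 8 and 5 with the moderated limma test (background 18.5% and 23.1%), and 1 and 1 (Ppara and Rara, 3.57% each way against 4.27% higher and 4.9% lower of all genes) at adjusted p under 0.01 in the authors' deposited table. With a level of at least 5 RPKM in either group it was 4 and 2 of 17 receptors (23.5% and 11.8%, against 14.3% and 17.9% of 11778 genes). Among those that rose, Vdr (3.39 and 5.72 RPKM) reached that level in the Dio3KO-labelled group only. It had to be higher there to be counted. No receptor differed 2-fold with 1 RPKM added, where 2 did with 0.5 RPKM, because a larger addend shrinks the ratios of low genes. Scaling both groups to the same sum of RPKM (1015250 and 947625) shifts log2 ratios up by at most 0.099, and by less in low genes, and centring shifts them by 0.05. Ratios near 0 then changed sign. With scaling, Rarg came to 0.075, Nr1d1 to 0.076, Nr2c2 to 0.0049 and Nr6a1 to 0.058, and with centring Rarg came to 0.038, Nr1d1 to 0.032 and Nr6a1 to 0.019. Centring moved the limma calls over all genes from 2921 higher and 3661 lower to 3632 and 2645. No paired analysis was possible because the table holds group means only, and for the same reason no replicate could be left out.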
